A study of Equus caballus with 18 samples.

Results

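The comparison described here is day 7 against 24 h after a corticosteroid was injected into a joint, in total RNA from equine synovial fluid, the lubricating fluid that fills the joint. The columns were those whose titles name day 7 or 24 h, paired by horse, which gave 12 of the 18 array columns of the series. The comparison was made on all 30559 probe sets and is described over the 16661 genes that the 16789 probe sets with exactly 1 gene symbol cover. Day 7 had 5 arrays and 24 h had 6, and the 6 baseline arrays, taken before the injection, entered the same fit.

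The animals were exercised adult Thoroughbreds aged 4 to 8 years, 12 in the whole study (6 geldings and 6 mares), without joint medication for a year or more beforehand. The 6 horses used here, called horses 1 to 6, received isoflupredone acetate, 8 mg in total, in the antebrachiocarpal joint of the right carpus. Saline was given to other horses, which were not analysed here, so time, drug, injection and repeated sampling cannot be told apart. Horses had returned to their regular exercise by day 3, between the 2 times, so exercise cannot be told apart from time either. The labels name 1 fluid sample per horse and time.

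Glucocorticoids bind the receptor encoded by NR3C1, which enters the nucleus and switches on a set of direct targets while it restrains inflammatory genes. In joints they are used to quiet inflammation of the lining, whose macrophages clear debris from the fluid. Normal synovial fluid holds few cells, chiefly macrophages, monocytes and lymphocytes, and neutrophils enter it when a joint is irritated. Bulk RNA cannot tell fewer cells of a type from less RNA per cell.

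Levels are the deposited values, on a log2 scale, and differences are log2 changes, day 7 minus 24 h, with SE. A gene was called when its adjusted p in limma, with the horse as a block and Benjamini-Hochberg adjustment over all probe sets, was under 0.05; "rose" and "fell" are used only of called genes and refer to the reduced set of arrays defined below, since no gene was called with all arrays. Where a symbol had several probe sets, the one with the highest mean stands for the gene.

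Some arrays stood apart. Horses 1 and 2 had near-identical day 7 columns, equal at 99.3% of probe sets to the 2 deposited decimals, against 2.05% for the next closest pair, and these were averaged into 1 array that stands for both horses. The 24 h array of horse 2 resembled the day 7 arrays: its closest array was the day 7 array of horse 3 (r = 0.975 over probe sets), and its median r was 0.948 with day 7 arrays and 0.906 with the other 24 h arrays. The files do not settle whether those day 7 columns are 1 array deposited under both names, nor whether the array labelled 24 h of horse 2 carries its right label, so values of horses 1 and 2 at day 7 and of horse 2 at 24 h carry that doubt. Results are therefore given with all arrays and again for the 16 arrays that remain when that 24 h array is dropped, called the reduced set. The 24 h arrays of horses 1 and 3 lay at the other end, with a median r of 0.76 and 0.762 with the day 7 arrays. The averaged day 7 array was itself closest to a 24 h array, that of horse 4 (r = 0.933).

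**Figure D1:**
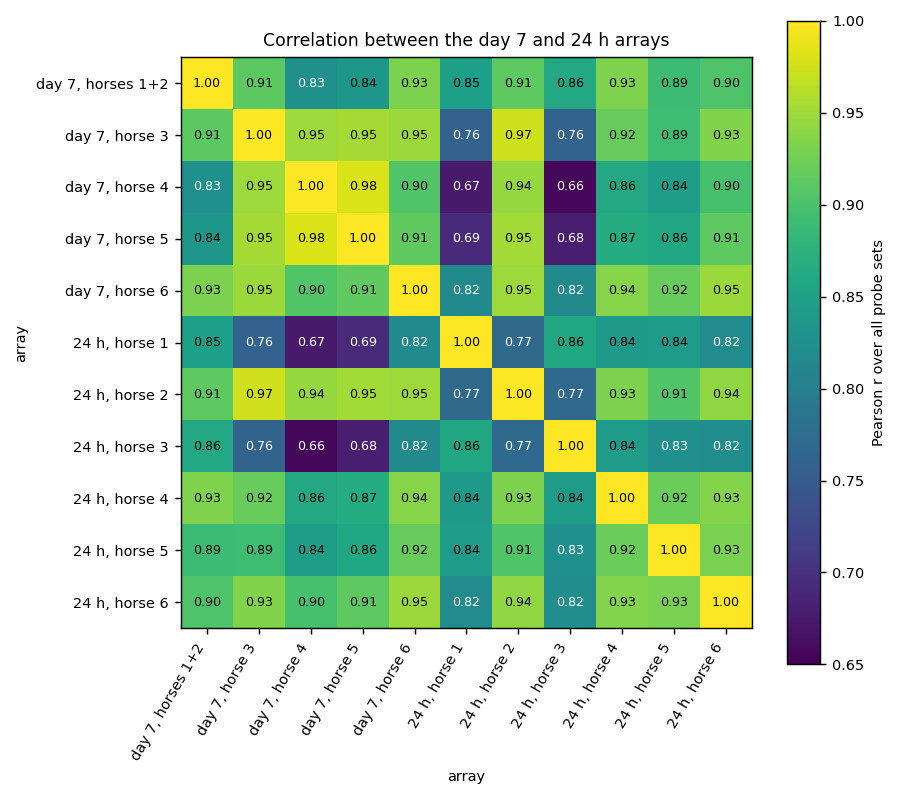
Pearson correlation over 30559 probe sets between the 5 day 7 arrays and the 6 arrays at 24 h; colour and number give r. Among the 24 h arrays that of horse 2 is brightest against the day 7 arrays of horses 3, 4 and 5, with 0.97 for horse 3, while the 24 h arrays of horses 1 and 3 are darkest against the day 7 arrays of horses 4 and 5.

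With all arrays, 0 of 30559 probe sets were called (0%), although 4032 (13.2%) had an unadjusted p under 0.05, and the smallest adjusted p was 0.145. In the reduced set limma called 430 probe sets (1.41%), 253 higher (0.828%) and 177 lower (0.579%) at day 7. Among the probe sets that stand for genes, 189 rose (1.13% of 16661) and 29 fell (0.174%). Most of the 177 lower probe sets were thus outside the genes described here, so the gene counts understate the lower side. All 430 had the same sign with every array kept, 424 of them with an unadjusted p under 0.05 there. The fits share 16 arrays, so this is not independent support. The dropped array was the 24 h array most like the day 7 arrays, so its removal favours a larger difference between the times. The count rested on few arrays: dropping 1 further horse or array gave between 20 (horse 3 dropped) and 2248 (24 h array of horse 6 dropped). Adding each array's SD as a covariate left 0. That SD tended to be higher at day 7, so the fit with it, here and below, cannot tell array spread from time. With all arrays, 7661 of the 16661 genes had a change above 0 and 9000 below 0. Of all genes, 1011 were higher at day 7 in 5 of 5 paired differences (6.07%) and 1079 were lower in all 5 (6.48%). The counts of the lists below are to be read against these. Day 7 values lay wholly above the 24 h values for 59 genes (0.354%) and wholly below for 66 (0.396%), and in the reduced set for 316 (1.9%) and 283 (1.7%).

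**Figure D2:**
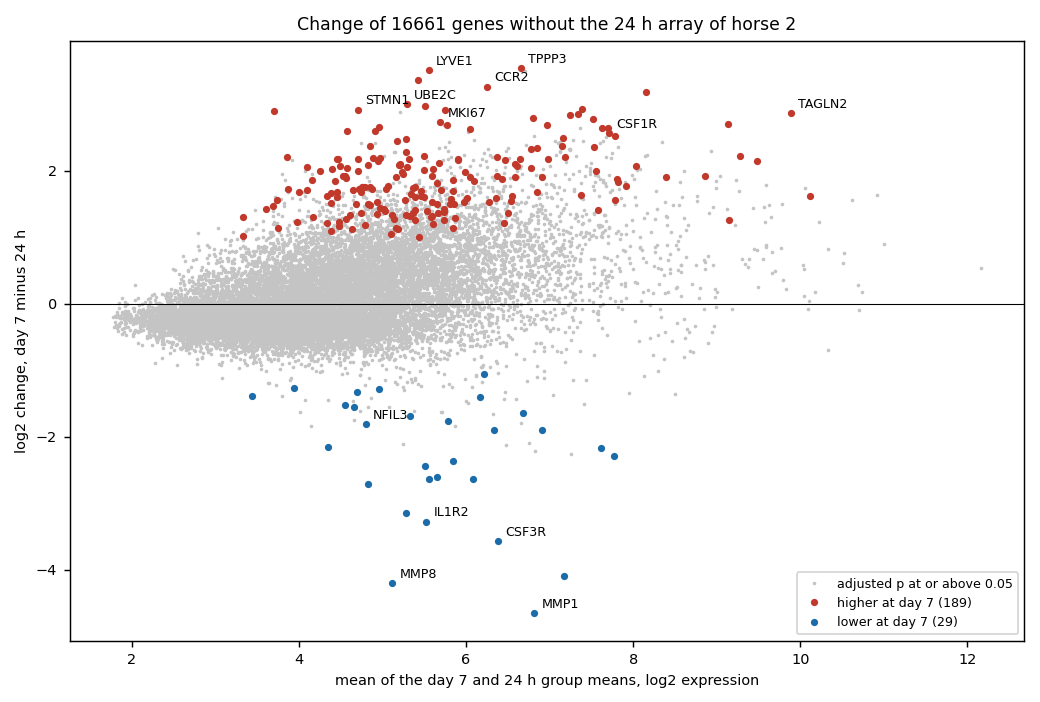
Each point is 1 of 16661 genes in the reduced set; the horizontal axis is the mean of both group means (log2 expression) and the vertical axis the log2 change, day 7 minus 24 h. The 189 genes that rose are red, with TPPP3 and LYVE1 the highest, and the 29 that fell are blue, with MMP1 and MMP8 the lowest.

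Proliferation genes had the highest median change of the 39 lists. All 53 measured members of the cell cycle list had a change above 0, with a median of 0.98 with all arrays against -0.05 over all genes, and 21 of the 53 were higher in 5 of 5 pairs. In the reduced set the median was 1.07, 19 of 53 rose and 0 fell, and 21 of 53 had every day 7 value above every 24 h value. The mean level of the list was 4.49 to 5.86 at day 7, against 3.97 to 4.72 at 24 h, where the highest value was the array of horse 2 and the others ended at 4.16. At baseline it was 4.14 to 4.24, so every day 7 array stood above every baseline array and above the 24 h arrays other than that of horse 2. The median member change per pair was 0.02 for the averaged array of horses 1 and 2, 0.90 for horse 3, 1.60 for horse 4, 1.72 for horse 5 and 0.72 for horse 6.

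MKI67, the nuclear proliferation marker Ki-67, was at 6.2 (horses 1 and 2), 6.82, 7.63, 7.6 and 6.97 (horses 3 to 6) at day 7, against a lowest value of 4.16, a median of 4.38 and a highest of 6.69 at 24 h. The highest 24 h value was the array of horse 2; the other 5 ended at 4.51, below every day 7 array. Its change was 2.31 ± 0.40 (SE, adjusted p = 0.145) with all arrays and 2.73 ± 0.26 (adjusted p = 0.00212, 6.61-fold) in the reduced set. A second probe set of MKI67 gave 2.39 and 2.79. MKI67 was called in 26 of the 27 alternative settings tried on the reduced set. Calls of other named genes held in as few as 5 of the 27, for FOSL2. They held in 7 for LIMK2, 8 for RUBCNL and 9 each for CXCR2, DRA and COX6B1.

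UBE2C, the ubiquitin-conjugating enzyme that helps the anaphase-promoting complex destroy cyclins, was at 5.4, 5.94, 7.85, 8.13 and 6.54 at day 7, against 3.28, 3.92 and 5.46 (lowest, median, highest) at 24 h. The groups overlapped only through horse 2's 24 h array. Its change was 2.69 ± 0.47 (adjusted p = 0.145) with all arrays and 3.00 ± 0.44 (adjusted p = 0.011) in the reduced set. CCNA2, the S-phase and G2 cyclin A, rose by 2.65 ± 0.46 (adjusted p = 0.0247) in the reduced set, and TOP2A, the topoisomerase that untangles replicated DNA, by 2.19 ± 0.45 (adjusted p = 0.042); both were higher in 4 of 5 pairs and were named after their values were seen. STMN1, a microtubule-destabilising protein abundant in dividing cells, was at 5.1, 5.43, 6.87, 7.45 and 5.73 at day 7, against 2.59, 3.44 and 5.46 at 24 h. It rose by 2.92 ± 0.31 (adjusted p = 0.00266) in the reduced set, against a difference of 2.45 ± 0.47 with all arrays, and was called in 26 of the 27 settings.

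The called members spanned the cycle. Replication was represented by the helicase subunits MCM3, MCM4 and MCM7, the sliding clamp PCNA and the nucleotide enzymes RRM2 and TYMS. Mitosis was represented by the kinases PLK1 and BUB1B, the motors KIF11 and KIF2C, and CENPF, NUSAP1, PRC1 and TPX2, which act at kinetochores or the spindle. E2F1 is the transcription factor that opens S phase. Outside the list, ANLN, the scaffold of the cleavage furrow, rose by 2.18 ± 0.35 and E2F8, an atypical E2F repressor, by 1.52 ± 0.26. H2BC3, a histone H2B gene, rose by 2.90 ± 0.59. The smallest changes of the list in the reduced set were 0.07 for CCNE1, which encodes cyclin E1, and 0.15 for CDC6, which loads the replicative helicase. With each array's SD as a covariate the list's median was 0.63 with all arrays and 0.84 in the reduced set, and 0 of its members were called.

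**Figure D3:**
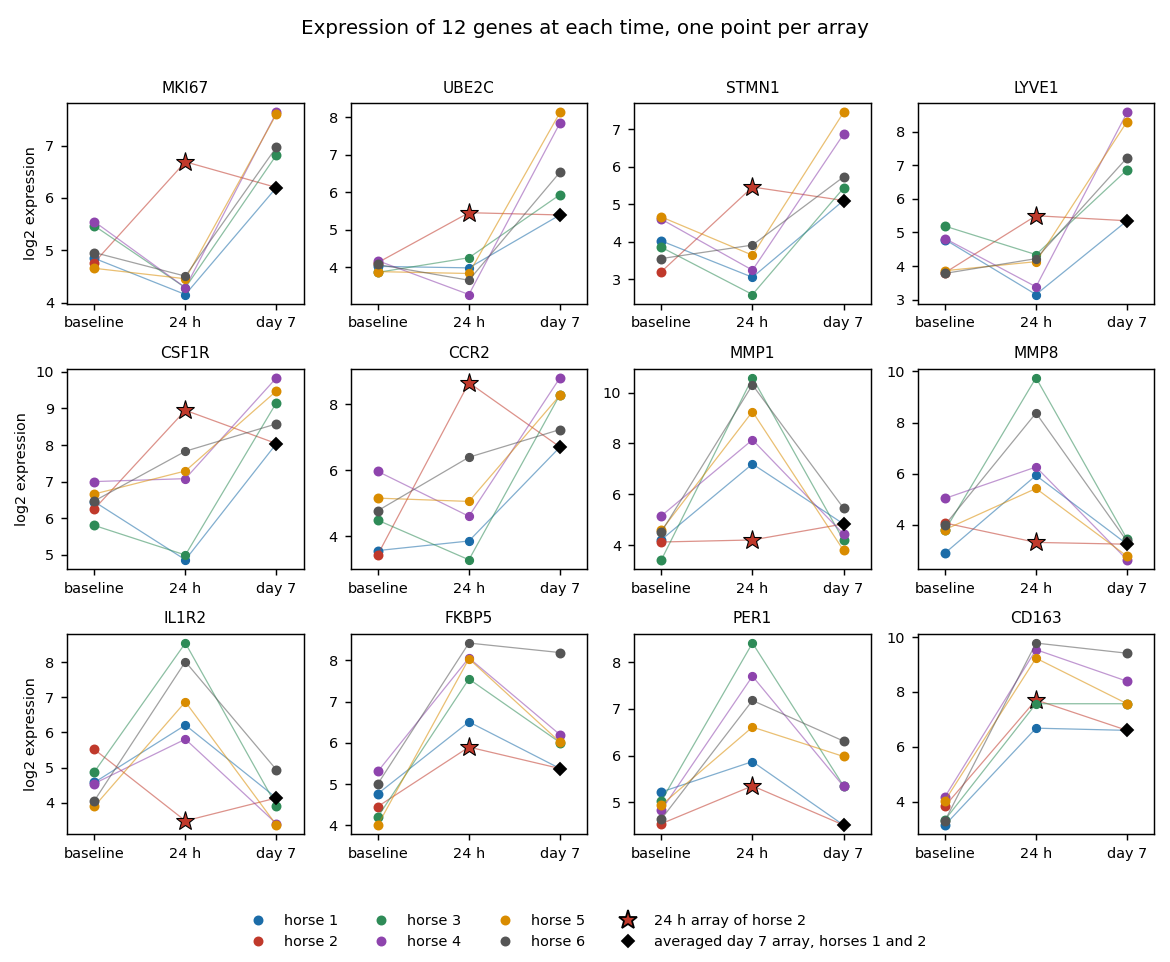
Log2 expression of 12 genes on every array, at baseline, 24 h and day 7; lines join arrays of a horse, the star marks the 24 h array of horse 2 and the diamond the averaged day 7 array of horses 1 and 2. For MKI67, UBE2C, STMN1 and LYVE1 every day 7 point lies above every 24 h point other than the starred one, for MMP1, MMP8 and IL1R2 every day 7 point lies below them, and CD163 is above baseline at both times.

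Monocyte and macrophage genes held further called rises, led by surface receptors. Of 24 monocyte and macrophage markers, 18 had a change above 0, 5 were higher in 5 of 5 pairs and 1 was lower in all 5. Their median was 0.53 with all arrays and 0.60 in the reduced set, where CCR2, CSF1R and MRC1 rose and 0 fell. Their mean level was 6.04 to 7.40 at day 7 and 5.18 to 7.23 at 24 h, so the groups overlapped. The median change per pair was 0.02 for horses 1 and 2, 1.42 for horse 3, 0.89 for horse 4, 0.67 for horse 5 and 0.07 for horse 6. With each array's SD as a covariate the median was 0.05, and in the reduced set -0.14, the opposite sign.

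CSF1R, the receptor for the growth factor that macrophages depend on, was at 8.04, 9.16, 9.84, 9.48 and 8.58 at day 7, against 4.86, 7.18 and 8.95 at 24 h. The 24 h array of horse 2 held the highest of these, and the other 24 h arrays ended at 7.83, below every day 7 array. Its change was 2.15 ± 0.51 (adjusted p = 0.224) with all arrays and 2.56 ± 0.43 (adjusted p = 0.0197) in the reduced set. CCR2, the receptor by which monocytes follow CCL2, was at 6.7, 8.29, 8.8, 8.27 and 7.23 at day 7, against 3.28, 4.83 and 8.65 at 24 h, and rose by 3.26 ± 0.46 (adjusted p = 0.00816) in the reduced set. The 24 h array of horse 2 held the value of 8.65, and the others ended at 6.39, below every day 7 array. MRC1, the mannose receptor, rose by 2.34 ± 0.50, although its groups overlapped (highest 24 h value 8.05, in horse 6). S100A8 and S100A9, calprotectin subunits shared by monocytes and neutrophils and members of this list, differed by -0.91 and -1.63 there and were not called.

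Among 21 genes listed as markers of resident lining macrophages the median was 0.53, and 5 were higher in 5 of 5 pairs and 0 lower in all. In the reduced set 3 rose (LYVE1, MRC1 and SPP1), of which MRC1 is also in the list above. Whether their RNA came from lining macrophages was not tested. The median was 0.19 with array SD as a covariate, and 0.16 in the reduced set. LYVE1, the hyaluronan receptor of resident macrophages and lymphatic vessels, was at 5.35, 6.87, 8.58, 8.31 and 7.23 at day 7, against 3.15, 4.17 and 5.5 at 24 h. It rose by 3.51 ± 0.49 (adjusted p = 0.00721, 11.4-fold) in the reduced set and differed by 3.08 ± 0.55 (adjusted p = 0.145) with all arrays, and was called in 23 of the 27 settings. SPP1, the secreted phosphoprotein osteopontin, was at 8.24, 8.99, 9.79, 9.13 and 8.09 at day 7 and ended at 7.09 on the 24 h arrays other than that of horse 2, which at 10.87 was the highest of all. SPP1 rose by 2.78 ± 0.44 in the reduced set and differed by 1.99 ± 0.75 with all arrays. TREM2 and TIMD4, receptors for lipids and phosphatidylserine, differed by 1.90 and 1.82 in the reduced set and were not called.

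Other macrophage genes were not called. CD163, the haemoglobin scavenger receptor that glucocorticoids induce, was at 6.6, 7.57, 8.39, 7.57 and 9.41 at day 7, against 6.68, 8.47 and 9.78 at 24 h and 3.15 to 4.18 at baseline. Its change of -0.67 ± 0.39 (adjusted p = 0.457) was not called in either fit. The lysosomal membrane glycoprotein GPNMB (-0.30 ± 0.53), the phagocytic receptor MERTK (0.44 ± 0.38) and the haem oxygenase HMOX1 (0.85 ± 0.47) were not called either. HMOX1 was at 0.10 with array SD as a covariate, and at -0.46 in the reduced set. CD68, a lysosomal macrophage marker above the array median on all 11 arrays, differed by 0.68 ± 0.36, also without a call.

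C3AR1, the receptor for the complement fragment C3a, was at 6.43, 7.94, 9.63, 8.76 and 8.32 at day 7, against 4.12, 5.64 and 7.17 at 24 h, and rose by 2.79 ± 0.47 (adjusted p = 0.0205) in the reduced set, with overlapping groups. Of 25 complement genes, 7 were higher in 5 of 5 pairs and 0 lower, but the median was -0.08, and C3AR1 was the 1 member that rose. COLEC12, a scavenger receptor, rose by 2.11 ± 0.43 and DRA, an MHC class II chain, by 2.21 ± 0.49. LAMP3, a marker of mature dendritic cells, rose by 1.70 ± 0.37, and the 21 dendritic cell and MHC class II genes had a median of 0.36 (0.12 with each array's SD as a covariate). TMEM176B, a membrane protein of immature dendritic cells, was at 6.94 or above at day 7 and at 6.92 or below at 24 h, and rose by 2.69 ± 0.41. TAGLN2, an actin-binding protein, rose by 2.86 ± 0.45 (adjusted p = 0.0147). TPPP3, a tubulin-binding protein, had the largest called rise, at 3.54 ± 0.57 (adjusted p = 0.0158), with levels of 6.71 to 9.62 at day 7 and 3.76 to 6.9 at 24 h. LPAR6, a lysophosphatidic acid receptor, rose by 3.36 ± 0.52 and DCTN5, a dynactin subunit, by 2.92 ± 0.44. CYP2C111, a cytochrome P450, rose by 2.97 ± 0.58 and LOC100059091, which has no other name here, by 3.18 ± 0.61.

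Organelle and metabolic lists were higher too, with few called members. Lysosomal genes had a median of 0.80 (37 of 41 above 0, 14 higher in 5 of 5 pairs), and GUSB and PPT1, both lysosomal hydrolases, rose in the reduced set, by 1.36 ± 0.27 and 2.04 ± 0.43. All 31 mitochondrial respiratory chain genes were above 0 (median 0.65), and ATP5F1B, a subunit of ATP synthase, rose by 2.51 ± 0.45 and COX6B1, of cytochrome oxidase, by 1.41 ± 0.30. Heat shock and protein folding had a median of 0.64 and 0 called, and NRF2 and antioxidant genes one of 0.53, although GSTP1 of that list fell. Lipid and cholesterol handling had a median of 0.58, and its transporters ABCA9 and ABCA6 rose. ABCA9 separated the groups on every array, with 4.72, 4.73, 6.65, 5.99 and 5.46 at day 7, against 3.34, 3.62 and 4 at 24 h. Its change was 1.81 ± 0.25 (adjusted p = 0.145) with all arrays and 1.92 ± 0.25 (adjusted p = 0.00642) in the reduced set.

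Hypoxia and glycolysis had a median of 0.43, with 11 of 34 higher in 5 of 5 pairs, and TPI1, a glycolytic enzyme, rose by 2.93 ± 0.61. Toll-like receptors and inflammasome genes had a median of 0.49 and efferocytosis and scavenger receptors 0.42. With each array's SD as a covariate these medians were 0.18 for lysosomal genes, 0.07 for the respiratory chain, -0.01 for heat shock, 0.09 for lipid handling, 0.09 for NRF2 genes, 0.05 for hypoxia, 0.02 for toll-like receptors and 0.04 for efferocytosis. In the reduced set they were 0.16 for lysosomal genes, 0.09 for the respiratory chain, -0.02 for heat shock, 0.06 for lipid handling, -0.04 for NRF2 genes, 0.09 for hypoxia, -0.06 for toll-like receptors and 0.01 for efferocytosis, so heat shock, NRF2 and toll-like receptor medians had the opposite sign there. In these lists the pair of the averaged array and the pair of horse 6 had median changes between -0.24 and 0.32, while horse 3 had between 0.79 and 1.86.

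**Figure D4:**
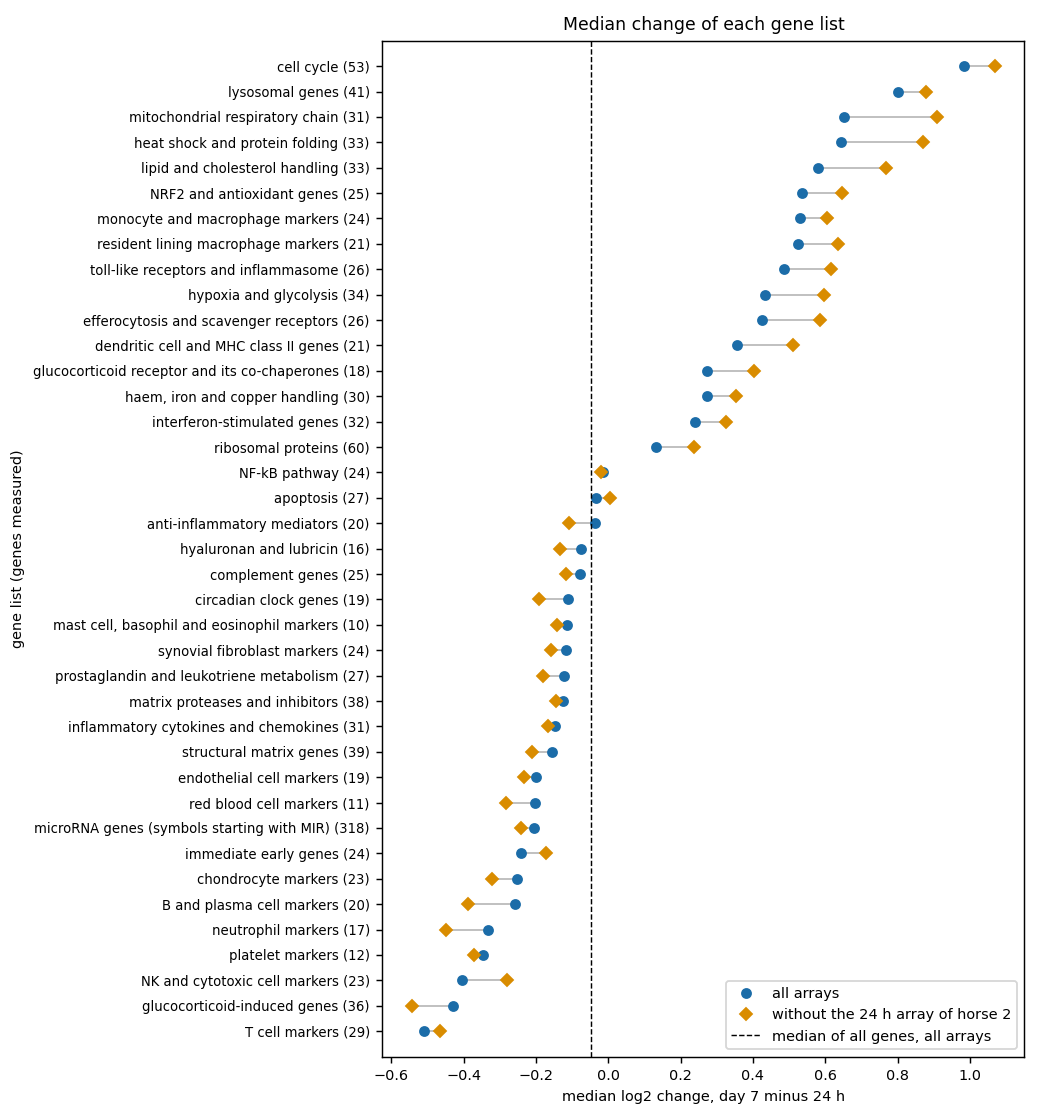
Median log2 change, day 7 minus 24 h, of 39 gene lists (genes measured in brackets), with all arrays (circles) and in the reduced set (diamonds); the dashed line is the median of all genes. The cell cycle lies farthest right at 0.98 and 1.07, and T cell markers, glucocorticoid-induced genes and NK markers lie farthest left among the circles.

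On the lower side, the collagenase genes MMP1 and MMP8 had the largest called changes. MMP1, the interstitial collagenase, was at 4.83, 4.19, 4.43, 3.79 and 5.45 at day 7, against 4.2, 8.7 and 10.58 at 24 h. Its lowest 24 h value belonged to horse 2, and the other 5 began at 7.19, above every day 7 array. In the reduced set MMP1 changed by -4.65 ± 0.54 (adjusted p = 0.00289, 25.2-fold lower), and with all arrays it differed by -3.94 ± 0.75 (adjusted p = 0.166). At baseline it was 3.42 to 5.15, within which the day 7 values lay except that of horse 6. MMP8, the collagenase stored in neutrophil granules, was at 3.24, 3.44, 2.63, 2.77 and 3.35 at day 7, against 3.31, 6.09 and 9.75 at 24 h. Horse 2 again had the lowest 24 h value, and the others began at 5.42. MMP8 changed by -4.20 ± 0.57 (adjusted p = 0.00699) in the reduced set and differed by -3.59 ± 0.71 with all arrays. Both collagenases were called in 26 of the 27 settings, and they were the only 2 of 38 matrix proteases and inhibitors that fell. MMP3 (-0.16 ± 0.29), MMP13 (-0.34 ± 0.26), ADAMTS4 (-0.20 ± 0.29) and ADAMTS5 (-0.10 ± 0.24) were not called. ADAMTS4 was at 3.07 to 4.37 and ADAMTS5 at 2.94 to 3.7 at day 7, against array medians of 3.64 to 4.04. Signals this low say little about a change.

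Of 17 neutrophil markers 15 were below 0 (median -0.33), 5 were lower and 2 higher in 5 of 5 pairs, and MMP8, CSF3R and CXCR2 fell in the reduced set. Their mean level was 4.47 to 4.82 at day 7, against 4.66 to 6.15 at 24 h, where the lowest was the array of horse 2 and the others began at 4.97. At baseline it was 4.32 to 5.36, which overlapped both times. With each array's SD as a covariate the median was -0.29, and -0.59 in the reduced set. CSF3R, the receptor for the growth factor that drives neutrophil production, was at 5.08, 4.98, 4.37, 4.24 and 4.77 at day 7, against 5.97, 7.89 and 10.53 at 24 h, and the groups did not overlap on any array. It changed by -3.57 ± 0.63 (adjusted p = 0.0255) in the reduced set. CXCR2, the neutrophil receptor for CXCL8, was at 3.53, 3.31, 3.2, 3.38 and 3.36 at day 7, against 4.06, 4.42 and 4.96 at 24 h, again without overlap. It changed by -1.27 ± 0.28 (adjusted p = 0.0469). At baseline CXCR2 was at 4.39 to 5.57, so it was not raised at 24 h. Outside the list FCAR, the Fc receptor for IgA on myeloid cells, fell by 2.72 (SE 0.60) and S100P, a calcium-binding protein, by 1.90 (SE 0.34). The neutrophil chemokine CXCL8 (-0.97 ± 0.33) and the receptors TREM1 (-1.19 ± 0.59) and HCAR2 (-1.85 ± 0.59) were not called. CXCR1 and ELANE were not measured.

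**Figure D5:**
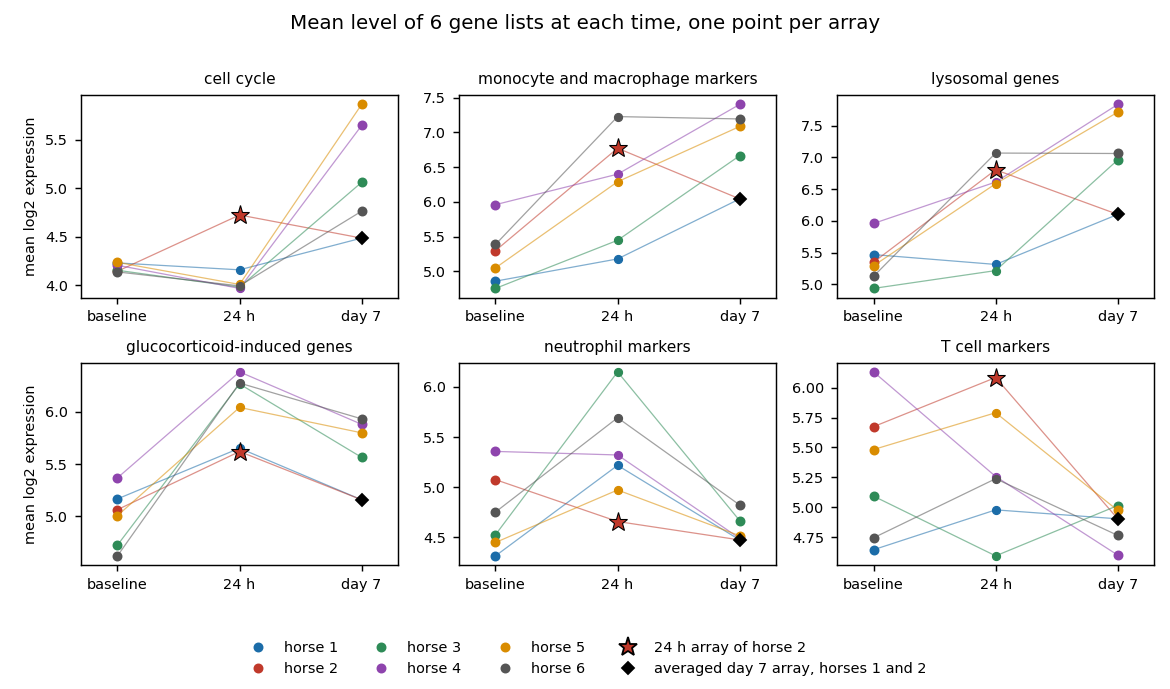
Mean log2 expression of 6 gene lists on every array, at baseline, 24 h and day 7, with marks as for the single genes. Cell cycle levels reach 4.49 to 5.86 at day 7, against 3.97 to 4.16 at 24 h apart from the starred array at 4.72, while neutrophil markers end between 4.47 and 4.82 at day 7.

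Genes listed as glucocorticoid-induced were lower at day 7 than at 24 h in most cases, and most of these differences did not pass the test. Of 36 glucocorticoid-induced genes 25 were below 0, with a median of -0.43, and 11 were lower in 5 of 5 pairs against 2 higher. The list was compiled from general knowledge of glucocorticoid targets with earlier results of these arrays known, so its direction is not independent evidence. In the reduced set the median was -0.54, 3 genes fell (IL1R2, IRS2 and SLA) and STOM, a membrane protein, rose by 1.68 ± 0.36. The mean level was 5.16 to 5.93 at day 7, against 5.62 to 6.38 at 24 h and 4.62 to 5.37 at baseline. The median change per pair was below 0 in all 5 pairs, from -0.64 in horse 3 to -0.14 in horse 6. With each array's SD as a covariate the median was -0.36, and -0.52 in the reduced set.

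IL1R2, the decoy receptor that traps interleukin-1, was at 4.14, 3.92, 3.41, 3.37 and 4.94 at day 7, against 3.49, 6.54 and 8.54 at 24 h. Only the 24 h array of horse 2 lay among the day 7 values; the others began at 5.81. IL1R2 changed by -3.28 ± 0.39 (adjusted p = 0.00402) in the reduced set, and was called in 25 of the 27 settings. IRS2, an adaptor of the insulin receptor, fell by 2.64 (SE 0.47, adjusted p = 0.027) and SLA, an adaptor that dampens antigen receptor signals, by 2.18 (SE 0.45, adjusted p = 0.0427). SLA was at 5.92, 7, 6.86, 6.73 and 6.38 at day 7, against 7.42, 8.3 and 10.06 at 24 h, and did not overlap on any array. Outside the list ETS2, a transcription factor, fell by 1.90 (SE 0.41, adjusted p = 0.046).

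The best known targets had changes below 0. FKBP5, the co-chaperone that feeds back on the receptor, was at 5.38, 6.01, 6.2, 6.02 and 8.19 at day 7, against 5.9, 7.79 and 8.42 at 24 h and 4.01 to 5.31 at baseline. It was lower at day 7 in 5 of 5 pairs, but its change of -1.19 ± 0.37 (adjusted p = 0.26), or -1.38 ± 0.37 (adjusted p = 0.0757) in the reduced set, was not called. Horse 6 kept the highest day 7 value of FKBP5 by a wide margin, 8.19, close to its 24 h value of 8.42. PER1, a clock repressor, was at 4.51, 5.35, 5.34, 5.98 and 6.31 at day 7, against 5.35, 6.89 and 8.41 at 24 h (-1.49 ± 0.39, adjusted p = 0.224). TSC22D3, which encodes GILZ, differed by -1.27 ± 0.38 and DUSP1, a phosphatase that switches off MAP kinases, by -1.95 ± 0.54, both lower in 5 of 5 pairs. DUSP1 was at 5.09 to 6.26 at day 7, within its baseline range of 4.21 to 6.41. DDIT4, an inhibitor of mTORC1 signalling, differed by -1.72 ± 0.41 and KLF9, a transcription factor, by -0.66 ± 0.32. These genes were not called in either fit, nor was the receptor gene NR3C1, which differed by 0.44 ± 0.42. Neutrophil marker levels, given above, also differed between the same arrays, and the 24 h array of horse 3 had the highest value of CSF3R, MMP8, IL1R2, PER1, DUSP1 and SLA; the part of neutrophil RNA in these differences was not tested.

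Clock and early response genes held single called falls. NFIL3, a repressor of clock output, was at 3.83, 3.87, 3.87, 3.6 and 4.45 at day 7, against 4.87, 5.42 and 6.84 at 24 h, apart on every array. It differed by -1.69 ± 0.27 (adjusted p = 0.145) with all arrays and fell by 1.82 (SE 0.27, adjusted p = 0.0131) in the reduced set. The other clock genes had no call, and the list's median was -0.11. Of 24 immediate early genes only FOSL2, an AP-1 subunit, fell, by 1.06 (SE 0.24, adjusted p = 0.049), and it was called in only 5 of the 27 settings. GADD45A, a stress sensor in the apoptosis list, fell by 1.68 (SE 0.34), and GSTP1, a detoxifying glutathione transferase, by 1.76 (SE 0.39). DGAT2, an enzyme of triglyceride synthesis, fell by 2.44 (SE 0.53), TGM3, a transglutaminase, by 2.63 (SE 0.53), LIMK2, a kinase that controls cofilin, by 2.36 (SE 0.53) and RUBCNL by 2.60 (SE 0.58). USP49, a deubiquitinase, fell by 1.55 (SE 0.29), TMEM140 by 1.53 (SE 0.30) and KCNJ15, a potassium channel, by 1.28 (SE 0.28). LOC100071026 fell by 4.10 (SE 0.56, adjusted p = 0.00721) and LOC100071946 by 3.15 (SE 0.60), and neither has another name here.

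Lymphocyte lists sat lower without a called member in either fit. T cell markers had the lowest median of the lists with all arrays, -0.51, with 25 of 29 below 0 and 7 lower in 5 of 5 pairs. Over all genes 9000 of 16661 were below 0 and 6.48% were lower in 5 of 5 pairs. Their mean level was 4.60 to 5.01 at day 7 and 4.59 to 6.08 at 24 h, so the groups overlapped. The highest 24 h value was the array of horse 2 and the lowest that of horse 3, whose pair had a median change of 0.19. ZAP70, the kinase of the T cell receptor, was at 4.2, 4.33, 4.01, 4.09 and 4.2 at day 7, against 4.34, 4.88 and 5.85 at 24 h, and differed by -0.87 ± 0.25 (adjusted p = 0.235). NK and cytotoxic cell markers had a median of -0.41 (21 of 23 below 0), and -0.28 in the reduced set. PRF1, which encodes perforin, differed by -0.56 ± 0.23 and GZMB, which encodes granzyme B, by -0.44 ± 0.27, with 2 other probe sets of GZMB at -0.07 and 0.03. B and plasma cell markers had a median of -0.26 and platelet markers one of -0.35. In the fit with array SD as a covariate the medians were -0.65 for T cell, -0.36 for NK, -0.12 for B cell and -0.06 for platelet markers.

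Inflammatory, matrix and lubrication genes had few calls. Of 31 cytokines and chemokines 0 were called and the median was -0.15. TNF differed by 0.63 ± 0.40, and IL6 (-0.03 ± 0.21) and IL10 (-0.03 ± 0.25) were near 0. IL6 was at 2.43 to 3.26 at day 7 and 2.61 to 2.85 at 24 h. Both ranges lay below the array medians of 3.64 to 4.04, so a signal this low says little about a change. PTGS2, the inducible cyclooxygenase, differed by -0.16 ± 0.21, while ALOX5, the 5-lipoxygenase, rose by 1.12 ± 0.24 in the reduced set. The 24 NF-kB pathway genes had a median of -0.01 and 0 calls, and the 20 anti-inflammatory mediators one of -0.04 with IL1R2 as the only call. Structural matrix genes (39 measured, median -0.16) and chondrocyte markers (23 measured, 21 below 0, median -0.25) had 0 calls. ACAN, the aggrecan gene, differed by -0.25 ± 0.22 and COMP, a cartilage matrix protein, by -0.16 ± 0.28. ACAN was at 3.33 to 4.16 at day 7, around the array medians. The medians of these matrix and chondrocyte lists were -0.06 and -0.16 after quantile normalization. Both were -0.02 with each array's SD as a covariate (-0.09 and -0.16 in the reduced set). In the hyaluronan and lubricin list LYVE1 and the hyaluronidase CEMIP2 (1.34 ± 0.26) rose in the reduced set. HMMR, a hyaluronan receptor that also acts at the mitotic spindle, stood apart on every array (3.14 or above at day 7, 3 or below at 24 h), with a change of 1.16 ± 0.35 that was not called. Fibroblast, endothelial, mast cell and red blood cell markers, interferon-stimulated genes, ribosomal proteins, haem and iron genes and the receptor's co-chaperones had 0 calls in either fit, with medians between -0.20 and 0.27. That of ribosomal proteins was 0.13, but -0.04 after quantile normalization and -0.35 with each array's SD as a covariate (-0.43 in the reduced set). That of the co-chaperones was 0.27, and -0.09 with the covariate (-0.08 in the reduced set). The lubricin gene PRG4 was not measured, nor was CD14.

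MicroRNA genes, small regulators of messenger RNA, were read by 318 probe sets with symbols starting with MIR; whether these read precursors or mature forms is not given in the sources used here. Of these, 277 had a change below 0 (median -0.21), 57 were lower in 5 of 5 pairs (against 6.48% of all genes) and 5 were higher. Their median level was 2.62, against 4.21 for all genes, and the dimmest of 4 equal classes of probe sets had a median change of -0.23. MIRLET7D, of the let-7 family, was at 6.26, 5.67, 5.43, 5.1 and 5.59 at day 7, against 3.4, 3.8 and 4.93 at 24 h, apart on every array, and rose by 1.72 ± 0.36 (adjusted p = 0.0441) in the reduced set. MIR328 changed by -2.29 ± 0.40 (adjusted p = 0.0247) there, with 8.08, 7.05, 5.46, 6 and 6.63 at day 7, against 6.29, 8.96 and 10.14 at 24 h; its groups overlapped. MIR218-2 (-1.05 ± 0.36), MIR23A (-1.31 ± 0.41) and MIRLET7E (-0.92 ± 0.27) were lower in 5 of 5 pairs, and MIR107A (0.49 ± 0.22) and MIR340 (0.81 ± 0.31) higher in all 5; none of these was called.

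The spread of values within each array was compared as well. The SD over probe sets was 1.70 ± 0.119 at day 7 (SD, n = 5) and 1.56 ± 0.12 at 24 h (SD, n = 6), and the paired difference averaged 0.141, higher in 4 of 5 pairs (two-sided exact permutation test, p = 0.188). In the reduced set it was 0.174 and higher in 5 of 5 pairs (two-sided exact permutation test, p = 0.0625, the smallest that 5 pairs allow). From the dimmest to the brightest of 4 equal classes of probe sets the median change was -0.23, -0.17, -0.08 and 0.09, with -0.15 over all, so bright probe sets tended to be higher at day 7 and dim ones lower. The classes were cut on the mean over all arrays, those of both times included, so class and change are not independent and part of this trend may be built in. Quantile normalization moved the median of all probe sets to -0.03, by over 0.1 on the log2 scale. The part of array spread in the gene differences was not tested. The SD itself tended to be higher at day 7, so the fit with the SD as a covariate cannot tell array spread apart from time. Calls lost and medians moved in that fit do not measure the part of either. In that fit with all arrays the medians of 5 further lists turned from below 0 to above it: mast cell (0.12), red blood cell (0.02), hyaluronan and lubricin (0.03), prostaglandin and leukotriene (0.05) and complement genes (0.03).

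Median changes against baseline, whose arrays both comparisons share, are given side by side. Cell cycle genes had -0.01 at 24 h and 0.87 at day 7. Lysosomal genes had 0.93 and 2.00, and monocyte and macrophage markers 0.78 and 1.75. Glucocorticoid-induced genes had 0.87 at 24 h and 0.42 at day 7, and neutrophil markers 0.11 and -0.30. Among single genes, FKBP5 was 2.79 above baseline at 24 h and 1.60 at day 7, CD163 4.78 and 4.11, and MMP1 3.94 and 0.00.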

How the data were processed

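Total RNA from synovial fluid was hybridised to an equine array. The authors deposited log2 expression values for 30559 probe sets and 18 columns (1.05 to 13.68); per the submitters' processing notes the tools were Transcriptome Analysis Console 3.0, Affymetrix Expression Console and RMA, whose order is not given. The array number limits the precision. Gene symbols come from the platform annotation: 16789 probe sets have 1, 343 several and 13427 none, and 111 genes have more than 1 probe set.

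Time was fitted with limma 3.58.1 in R 4.3.3 (lmFit, eBayes; two-sided) on 17 arrays, horse as a fixed block, the averaged day 7 array given in equal parts to horses 1 and 2; leaving out the 24 h array of horse 2 leaves 16. The averaged columns differed at 212 probe sets, none with a symbol, by up to 3.87. Paired differences number 5; the averaged array is set against the mean of the 24 h arrays of horses 1 and 2, or against that of horse 1 alone. Pairing comes only from horse names in the labels. Deviations from time means correlated at a median of -0.02 within horses (18 pairs) and -0.0037 between horses at different times (78 pairs). Arrays of the same horse were thus no more alike than those of different horses, and these values do not back the pairing. Separate fluid samples are not otherwise described, so p-values measure the spread between these samples. Whether RNA was extracted or hybridised in batches is not given in the sources used here.

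Named genes were, per direction, 12 by smallest p with the same sign in all pairs, the 12 largest called changes of the fit without the 24 h array of horse 2 (178 higher and 29 lower qualified), up to 4 called members (otherwise 2) per list, 43 fixed genes and 4 microRNA genes; 16 more were named after their values were seen, as were listed members given for contrast. Members and lists were chosen with earlier results of these data known. The fit was tested on simulated data. Alternatives were the block, samples in the fit, normalization, filters, variance moderation, array weights, array SD and arrays left out. Figures used matplotlib.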

Additional observations from a re-analysis of the deposited data

Results flagged for a closer look

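Single arrays that stood apart from the rest of their time were sought with Dixon's test on each named gene, each list's mean level and the array SD. It marked 26 of 396 groups tested (6.57%), where chance marks about 1 in 20 of independent groups not chosen by their values. Many named genes were chosen by their changes, some of them in the reduced set, or after their values were seen. Several also belong to the same list, so the groups are not independent. The share marked can therefore not be judged against that rate.

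Of the marked groups, 11 were the 24 h array of horse 2, always as the highest of its time. They were BUB1B at 4.86, CCNA2 at 5.26, H2BC3 at 4.37, MKI67 at 6.69, PCNA at 4.88 and TYMS at 6.3, and the cell cycle list with a mean of 4.72, all genes of dividing cells. CYP2C111 at 6.91, IL1RN at 7.24, TFRC, the transferrin receptor, at 5.84 and TMEM176B at 6.92 completed them. The other 24 h arrays held MKI67 between 4.16 and 4.51 and PCNA between 2.95 and 3.22. Choosing genes by their change without the 24 h array of horse 2 favours such marks. Their number is therefore not separate evidence about that array.

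The averaged day 7 array of horses 1 and 2 was marked 6 times. It was the lowest of day 7 for COX6B1 at 7.06, HSPA8 at 9.06, TIMD4 at 6.86, TREM1 at 6.06 and the mean of hypoxia and glycolysis at 5.80, and the highest for IL6 at 3.26.

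The other 9 were spread over 5 arrays. The day 7 array of horse 5 was lowest for FOSL2 at 5.18 and USP49 at 3.68 and highest for TNFAIP3 at 5.41. The day 7 array of horse 4 was highest for the mean of immediate early genes at 6.03. The 24 h array of horse 3 was highest for GSTP1 at 8.37 and for the mean of red blood cell markers at 4.24. The 24 h array of horse 4 was highest for ZBTB16 at 6.88 and lowest for the mean of hyaluronan and lubricin at 4.02. The 24 h array of horse 6 was highest for IL10 at 5.14, where the other arrays lay between 4.11 and 4.14.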

How the results depend on the processing

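With all arrays the count of called probe sets stayed at 0 with no replicate block and in most other settings. It became 430 without the 24 h array of horse 2, 570 when also restricted to the 2 times (horse 2 then has no other array, so the averaged array was given to horse 1) and 135 with quantile normalization as well. It was 12 with the averaged array given to horse 1, 107 without the averaged array, 965 without both, 3446 with array weights and 1624 by an unadjusted p under 0.05 with at least 2-fold change. Leaving out a whole horse, or a 24 h or day 7 array other than these, gave 0 to 610, with 610 without horse 2 and 0 for the rest.

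Without the 24 h array of horse 2 the count of 430 became 528 with no replicate block, 135 with quantile normalization, 236 with centred arrays, 0 with array SD as a covariate (1657 at an unadjusted p under 0.05), 965 without the averaged array, 672 with only the brighter probe sets (above the median level), 267 with a variance trend, 7334 with array weights and 183 over 1 probe set per gene. Leaving out arrays moved it between 20 and 2248. It was 221, 20, 44, 21 and 1943 without horses 1, 3, 4, 5 and 6, then 115, 42, 122, 67 and 2248 without their 24 h arrays, and 40, 49, 37 and 813 without the day 7 arrays of horses 3, 4, 5 and 6. The difference of array SDs lay between 0.109 and 0.174. The causes were not tested.

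With all arrays as the starting point, directions turned for 14 uncalled genes. With array SD as a covariate CD68 was at -0.068, GZMB 0.027, IL1RN -0.25, MERTK -0.14, MMP13 0.12, NR3C1 -0.25, PTGS2 0.071, ADAMTS5 0.15 and IL6 0.25. With quantile normalization ADAMTS5 was at 0.043, IL6 0.18 and MMP3 0.026, and without the 24 h array of horse 2 as well IL6 0.11 and MMP3 0.084. With centred arrays ADAMTS5 was at 0.0026, IL10 0.081 and IL6 0.078. IL6 was at 0.050 with both columns kept. IL10 was at 0.010 with the averaged array given to horse 1, 0.12 without it, 0.049 without both and 0.10 with array weights. With single horses or arrays left out the ranges were -0.38 to 0.016 for ADAMTS4, -0.23 to 0.034 for ADAMTS5, -0.33 to 0.047 for COMP, -0.58 to 0.016 for GPNMB, -0.19 to 0.13 for IL10, -0.068 to 0.057 for IL6 and -0.31 to 0.0095 for MMP3. With the reduced set as the starting point and array SD as a covariate, 10 uncalled genes turned: CD68 to -0.33, CTSB -0.16, GZMB 0.11, HMOX1 -0.46, IL6 0.14, LGALS3 -0.15, MERTK -0.02, MMP3 0.06, NR3C1 -0.19 and PTGS2 0.18. IL10 and IL6 turned with centred arrays, to 0.04 and 0.0029.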
